A study of Mus with 8 samples.

Results

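The genes encoding the proteins of the cytosolic ribosome were followed through all 8 libraries of an RNA-seq study of fat cell differentiation. They were taken by their symbols, which begin with Rpl for proteins of the large (60S) subunit, Rps for proteins of the small (40S) subunit, or Rplp for the proteins of the ribosomal stalk. This rule gave 81 of the 24013 genes in the count table, 50 of the 60S and 31 of the 40S subunit. Of them, 76 (46 of the 60S and 30 of the 40S subunit) had enough counts to be tested, among 13339 genes tested in all. The rule used no measured value.

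The cytosolic ribosome joins a small subunit, which reads the mRNA, with a large subunit, which makes the peptide bond. Each of its proteins is needed in step with the others, and their mRNAs, which are among the most abundant of a growing cell, carry a 5′TOP motif through which mTOR and Larp1 link their translation and stability to insulin and nutrients. Preadipocytes leave growth arrest, divide again and then accumulate lipid when they are given the adipogenic hormones.

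The cells were 3T3-L1, a mouse line of preadipocytes. C cells carried a scrambled shRNA and P cells an shRNA against Prep1 (gene Pknox1), a homeodomain transcription factor, both delivered by a lentivirus. RNA was taken at day −2, before any hormone was added, and at day 1, which is 24 hours after the cells received the cocktail of dexamethasone, IBMX and insulin. No library was taken at day 1 without the hormones, and the serum of the medium was changed when the hormones were added. Induction here means the comparison of day 1 with day −2, in which hormones, serum and time in culture cannot be told apart. Each of the 4 conditions had 2 biological replicas, and a single cell line stands behind all of them.

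The libraries held between 20428816 and 27614353 counts on 16232 to 18484 genes. Pknox1 was lower in P cells, at 17.3 and 18.3 counts normalized to the size of the library (CPM) against 28.1 and 26.5 CPM in C cells at day −2, and at 23.6 and 23.8 against 38.1 and 36.5 CPM at day 1 (log2 ratios −0.62 and −0.65, adjusted p = 0.0558 and 0.0575, edgeR). The markers of preadipocytes and fibroblasts were the ones present, and those of endothelial, epithelial, muscle and erythroid cells summed to at most 7.24 CPM in any library, and 7 macrophage markers to between 8.63 and 23.7 CPM. Replica 1 of P cells at day −2 stood apart from the other libraries. It had the lowest scaling factor (0.837) and the highest sum over 14 preadipocyte and fibroblast markers, 81789 CPM against 19922 to 38353 in the other libraries. It also had the fewest genes with a count (16232). Replica 1 of C cells at day 1 (16599) and replica 2 of P cells at day 1 (16831) were near it in this. Col1a2 had the most counts of these markers, and they did not all go one way. Over both replicas at day −2 the fitted ratio of P to C cells was positive in 9 and negative in 5 of the 14. For the ribosomal protein genes each comparison is given with and without replica 1 of P cells at day −2, since it stood apart. The comparisons of the other gene lists are given with all libraries only.

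The ribosomal protein genes took the smallest share of the counts in P cells at day −2. The share was 7.20% and 7.40% of the counts in replicas 1 and 2 of C cells at day −2, but 3.82% and 5.85% in those of P cells. After induction C cells had 9.06% and 6.85%, and P cells 6.40% and 6.47%. Both P libraries lay below both C libraries at each time, with a mean of 4.83% ± 1.44 (SD, n = 2) against 7.30% ± 0.140 at day −2 and of 6.44% ± 0.0468 against 7.96% ± 1.56 at day 1. With 2 libraries against 2, an exact two-sided permutation test cannot give a p below 0.333, so no test of the share was made. Counting error was small beside these differences, since the 95% Wilson interval reached at most 0.0112 percentage points to either side. In bulk RNA, less mRNA of these genes per cell and more mRNA of other genes cannot be told apart, nor can either be told from a change in the mixture of cells.

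**Figure D1:**
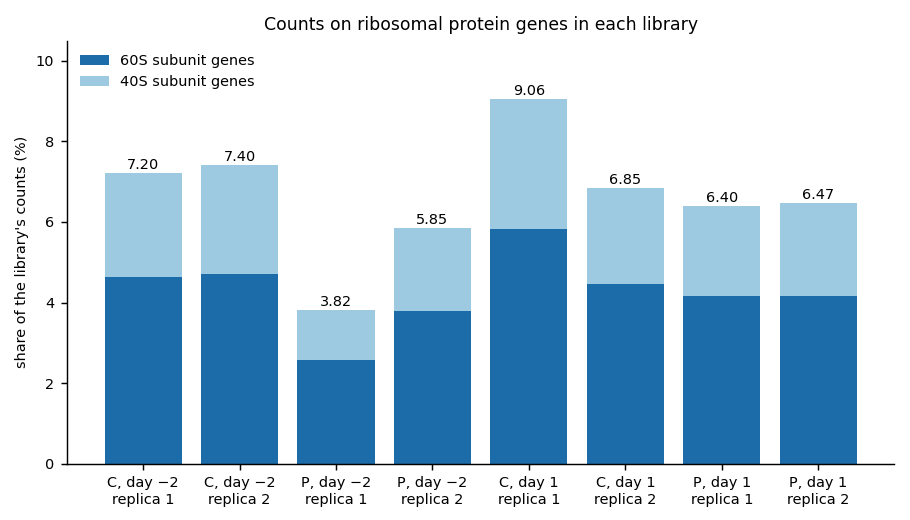
Share of each library's counts (vertical axis, %) that lay on the 81 ribosomal protein genes, split into 60S (dark) and 40S (light) subunit genes; each bar is 1 library and the number above it is the sum. The bar of P cells at day −2, replica 1, is the lowest (3.82%) and that of C cells at day 1, replica 1, the highest (9.06%).

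Both subunits took part in these differences. The counts on 60S genes were between 1.76 and 1.85 times those on 40S genes in 7 of the libraries, and 2.06 times in replica 1 of P cells at day −2. There the 60S genes took 2.57% and the 40S genes 1.25% of the counts, while in replica 2 they took 3.79% and 2.06%.

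Gene by gene, the 2 replicas of C cells at day −2 were close to each other, and the median over the 76 genes of the difference from their mean fell to −1.04 on the log2 scale in P cells at day −2, replica 1, and to −0.30 in replica 2. Of the 76 genes, 63 and 67 were below the mean of C cells in these libraries, and 40 were under 0.5 times it in replica 1, where 19.7% of all genes were, and 1 in replica 2, where 4.45% were. At day 1 the medians were 0.40 and −0.00 for the C replicas and −0.19 and −0.19 for the P replicas. The number of genes below the mean of C cells at day −2 was 3 and 38 in C cells at day 1 against 60 and 55 in P cells. The map of all 76 genes shows that the fall in P cells at day −2 was shared by most genes in both replicas, but that its size varied among genes much more in replica 1, where the SD over genes was 0.96, than in replica 2, where it was 0.23. Over all genes these SDs were 1.19 and 0.68, so a wide spread in replica 1 was not particular to this set.

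**Figure D2:**
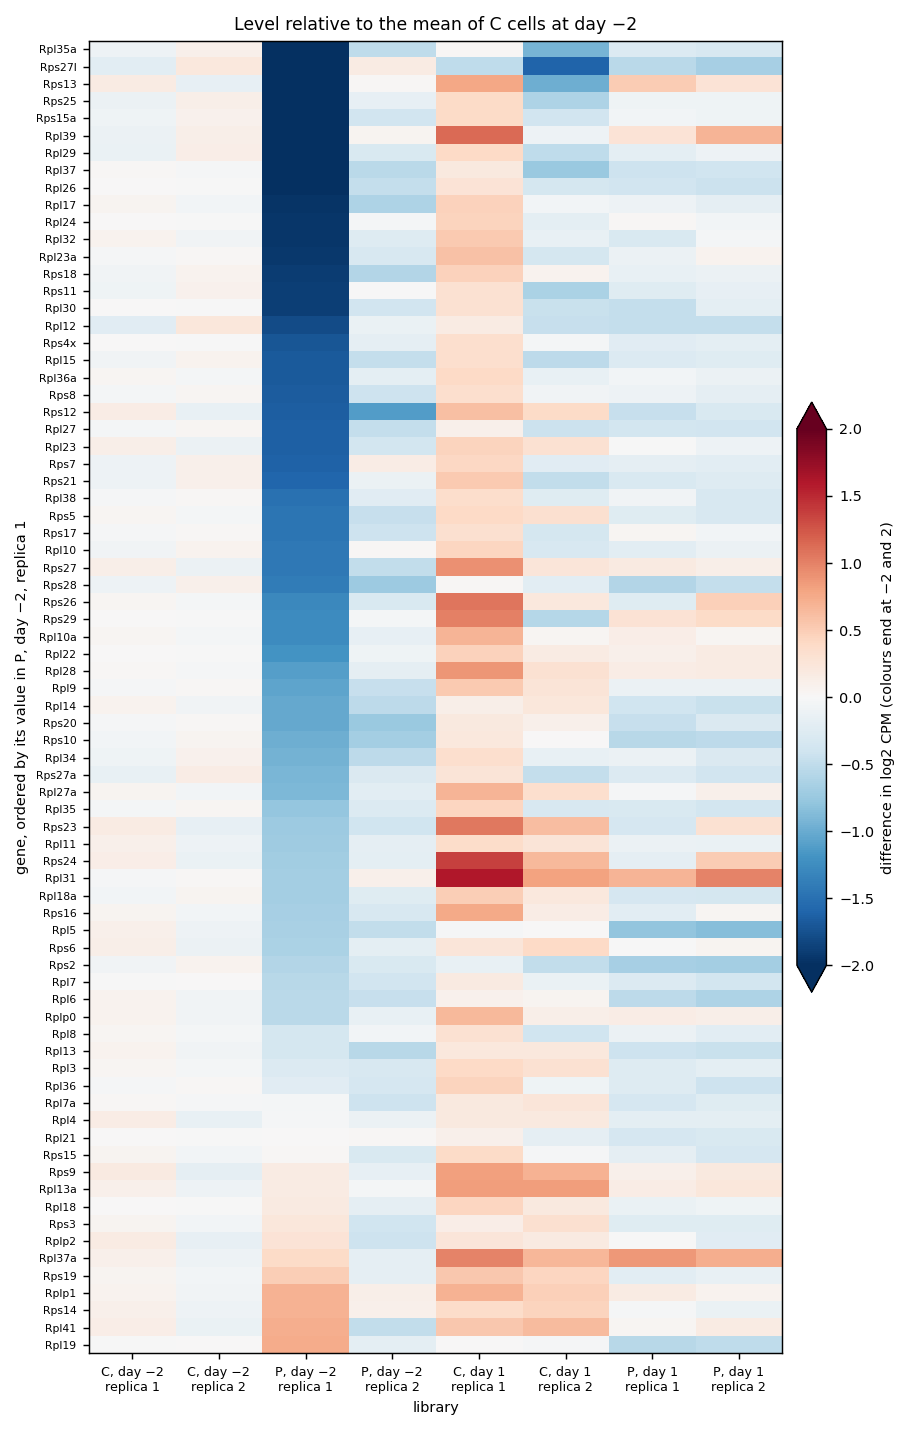
Log2 CPM of the 76 ribosomal protein genes tested (rows, ordered by P cells at day −2, replica 1) in the 8 libraries (columns), each relative to the gene's mean in C cells at day −2; blue is lower, red is higher and the colours end at −2 and 2. The column of P cells at day −2, replica 1, runs from dark blue to red (SD 0.96), while both columns of P cells at day 1 are mostly pale blue (median −0.19).

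Knock-down of Prep1 was compared with the control before induction, to ask what the loss of the factor did without hormones. In this comparison 67 of the 76 ribosomal protein genes were lower in P cells and 9 were higher, with a median log2 ratio of −0.57 (−0.53 over the 60S and −0.68 over the 40S genes) against 0.01 over all genes tested. Each gene was tested by quasi-likelihood in edgeR, and p-values were adjusted by Benjamini-Hochberg over all genes. At an adjusted p under 0.1 and a ratio over 2 or under 0.5, the thresholds of the study, Rps12 and Rps28 were called, both lower, which is 2.63% of the 76 genes where 6.98% of all genes were called in either direction. At an adjusted p under 0.1 alone, 7 of the genes (9.21%) were lower, where 3.72% of all genes were, and 0 were higher, where 7.62% of all genes were. DESeq2 called 18 at an adjusted p under 0.1, where it called 19.5% of all genes, and 17 had an unadjusted p under 0.05 in edgeR, where 25.2% of all genes did. Neither count was far from the share over all genes, but that share covers both directions, while the 18 and the 17 genes were all lower. The share of all genes that were lower by these rules was not counted. In 54 genes (71.1%) both P libraries were below both C libraries, which held for 27.3% of all genes, and in 3 genes (Rpl21, Rplp1 and Rps14) both were above, which held for 26.5% of all genes.

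The 7 lower genes were Rps12, Rps20, Rps10 and Rps28 of the 40S subunit and Rpl14, Rpl5 and Rpl6 of the 60S subunit. Rps12 had 666 and 547 CPM in C cells against 193 and 279 CPM in P cells, a log2 ratio of −1.36 (SE 0.22, adjusted p = 0.0187, edgeR). Rps20, a protein of the head of the 40S subunit, had 1010.4 and 1039 CPM in C cells against 505 and 612 in P cells (log2 ratio −0.88, SE 0.16, adjusted p = 0.0276, edgeR). For Rps12 and Rps20 the P replicas lay below the C replicas without overlap, and replica 1 of P cells was the lower one. Rps10, which like Rps20 is marked with ubiquitin when a ribosome stalls, had 649 and 695 CPM in C cells against 342 and 421 in P cells (log2 ratio −0.82, SE 0.16, adjusted p = 0.0374, edgeR). Rps28 had 297 and 341 CPM in C cells against 121 and 192 in P cells (log2 ratio −1.03, SE 0.24, adjusted p = 0.057, edgeR).

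The 60S genes among them changed less. Rpl5, which binds Rpl11 and with it the ubiquitin ligase Mdm2, had 1209 and 1043 CPM in C cells against 718 and 795 in P cells (log2 ratio −0.57, SE 0.15, adjusted p = 0.0766, edgeR). Rpl6 had 1577 and 1432 CPM in C cells against 1032 and 1097 in P cells (log2 ratio −0.50, SE 0.14, adjusted p = 0.0923, edgeR). Rpl14 had 647 and 588 CPM in C cells against 303 and 427 in P cells (log2 ratio −0.76, SE 0.19, adjusted p = 0.0704, edgeR). In each of these genes both P libraries lay below both C libraries. Of 20 alternative settings, the calls of Rps12 and Rps20 were lost in 3, and those of the other 5 genes in 5 (Rps10) to 10 (Rpl5 and Rpl6).

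Among all 76 genes the log2 ratio ran from −1.36, in Rps12, to 0.43. The next lowest after Rps12 was Rpl35a at −1.33, but its P replicas were at 43.7 and 331 CPM against 436 and 504 in C cells, and the adjusted p was 0.324 (SE 0.80, edgeR). The highest were Rplp1, a protein of the stalk that recruits the translation factors, and Rps14. Rplp1 had 1158 and 1055 CPM in C cells against 1791 and 1200.3 in P cells, and Rps14 had 1122 and 977 CPM in C cells against 1699.9 and 1122 in P cells. Most of their excess came from replica 1 of P cells, and neither passed the test (log2 ratio 0.43, SE 0.22 for each, adjusted p = 0.253 and 0.262, edgeR).

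Without replica 1 of P cells at day −2, 67 of the 76 genes were again lower and the median log2 ratio was −0.29, but 64 genes had the same sign as with all libraries and the others changed it, among them Rps13 and Rps27l, which became positive, and Rpl19 and Rpl41, which became negative. The remaining P library of that condition was then assumed to vary like the others, and 15 genes were lower at an adjusted p under 0.1 (edgeR), where 8.04% of all genes were, with 0 higher. Without replica 2 the median was −1.05, and 59 genes were lower and 6 higher, where 32.4% and 32.6% of all genes were. When the 2 conditions were fitted on their own, 0 of the 76 genes passed in edgeR, where 0.637% of all genes did, and 6 had an unadjusted p under 0.05, all lower.

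**Figure D3:**
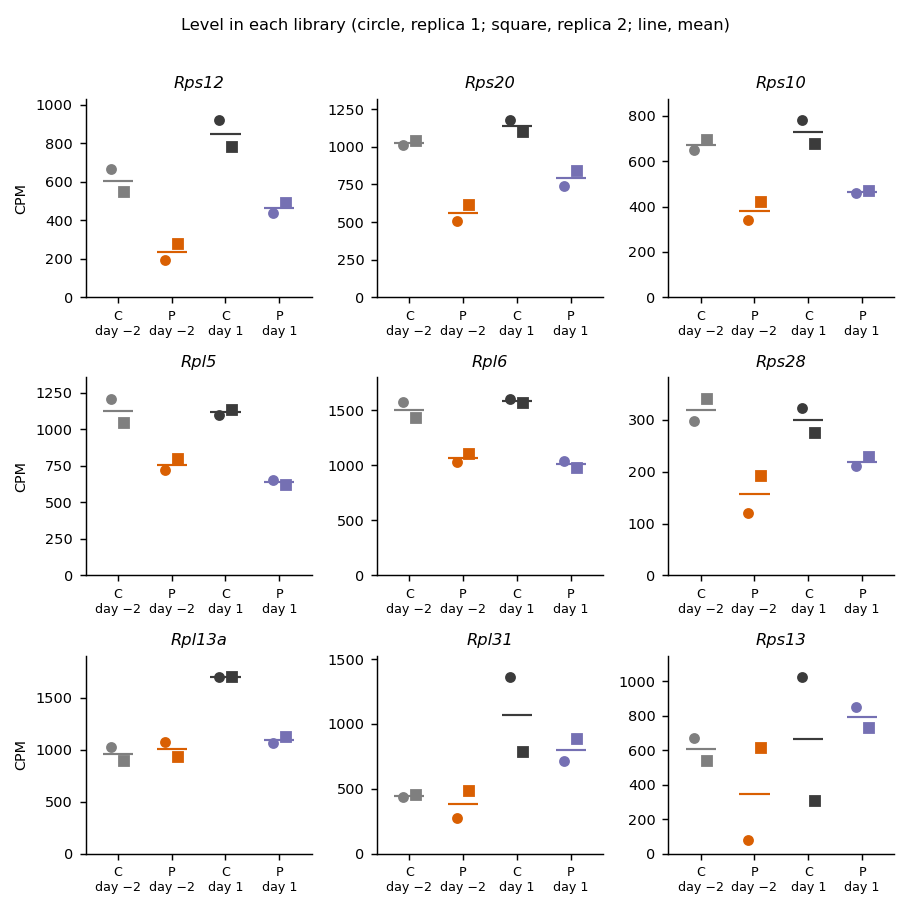
CPM (vertical axis, from 0) of 9 ribosomal protein genes in the 4 conditions; circles are replica 1, squares replica 2 and lines the mean of the 2. In Rps12, Rps20, Rps10, Rpl5, Rpl6 and Rps28 both P replicas lie below both C replicas at each day, Rpl13a is high in C cells at day 1 alone (1698 and 1699 CPM), and in Rps13 the P replicas at day −2 are far apart (82.0 and 615 CPM).

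After induction, P cells were again compared with C cells, both having received the hormones. The ribosomal protein genes were lower in P cells in 73 of 76 cases, with a median log2 ratio of −0.39 (−0.38 over the 60S and −0.43 over the 40S genes) against 0.01 over all genes. None passed the thresholds of the study in edgeR, where 4.06% of all genes did. In 18 the unadjusted p was under 0.05, all lower, where 16.2% of all genes passed in either direction. At an adjusted p under 0.1 alone 7 genes (9.21%) were lower, where 3.42% of all genes were. None was higher, where 2.73% of all genes were. DESeq2 gave 14, all lower, where it called 10.6% of all genes in either direction. In 45 genes (59.2%) both P libraries were below both C libraries, against 29.9% of all genes, and in 0 genes both were above, against 30.6% of all genes.

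The 7 genes were Rpl3, Rpl5, Rpl6, Rpl13, Rpl13a, Rps10 and Rps12. Rpl5 had 1099.8 and 1133 CPM in C cells against 651 and 621 in P cells, a log2 ratio of −0.81 (SE 0.15, adjusted p = 0.0355, edgeR). Rpl6 had 1603 and 1568 CPM in C cells against 1040.4 and 977 in P cells (log2 ratio −0.65, SE 0.14, adjusted p = 0.0579, edgeR). Both genes differed little between the replicas of either kind of cell at day 1. Rps12 had 919 and 783 CPM in C cells against 438 and 489.9 in P cells (log2 ratio −0.87, SE 0.22, adjusted p = 0.0948, edgeR). Rps10 had 780.3 and 677 CPM in C cells against 459 and 469 in P cells (log2 ratio −0.65, SE 0.16, adjusted p = 0.091, edgeR).

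Rpl13a, which is often used as a reference gene in qPCR, had 1698 and 1699 CPM in C cells against 1061 and 1118 in P cells (log2 ratio −0.64, SE 0.15, adjusted p = 0.0796, edgeR). Rpl13 had 1298 and 1303 CPM against 846 and 827 (log2 ratio −0.64, adjusted p = 0.0703, edgeR), and Rpl3, at the peptidyl transferase centre, had 2293 and 2144 against 1458 and 1529.6 (log2 ratio −0.57, adjusted p = 0.0835, edgeR). Rpl13a differed from the others in that C and P cells were alike at day −2, at 1022 and 889 against 1073 and 930.3 CPM. Rps24 had the second lowest ratio, −0.85, but its replicas were far apart in both kinds of cell, at 1208 and 733 CPM in C against 414 and 663 in P cells, and the adjusted p was 0.266 (edgeR). The calls at day 1 were lost in 6 (Rpl5) to 11 (Rpl3, Rps10 and Rps12) of 20 alternative settings. The 2 highest ratios, 0.35 in Rps27l and 0.25 in Rps13, had adjusted p of 0.924 and 0.951 (edgeR).

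Rpl5, Rpl6, Rps10 and Rps12 were lower in P cells at both days, which is 57.1% of the 7 genes at each day. The comparisons at the 2 days share no library, but they were fitted with a common spread. In C cells at day 1, 66 of the 76 genes were higher in replica 1 than in replica 2, and the results depended on which was used. Without C cells' replica 1 at day 1 the median log2 ratio was −0.18, and 50 of the 76 genes were lower in P cells. Without replica 2 it was −0.60, and all 76 were lower. With replica 1 of P cells at day −2 left out, which enters this comparison only through the common spread, 39 genes were lower at an adjusted p under 0.1 and 0 higher (edgeR), where 16.2% and 12.7% of all genes were. A fit of the day 1 libraries alone gave 32 lower and 0 higher, where 27.7% of all genes passed in either direction.

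In C cells a few ribosomal protein genes were higher at day 1 than at day −2, and none was lower, at an adjusted p under 0.1 (edgeR). The log2 ratio of day 1 to day −2 was positive in 59 and negative in 17 of the 76 genes, with a median of 0.19 in 60S and 0.18 in 40S genes, against −0.01 over all genes. Rpl31 and Rps24 passed the thresholds of the study, which is 2.63% of the genes where 20.4% of all genes did. At an adjusted p under 0.1 alone, 7 were higher (9.21%), where 18.1% of all genes were, and 0 were lower, where 17.4% of all genes were. Of the 76 genes, 8 had an unadjusted p under 0.05, all higher, where 39.4% of all genes did in either direction. DESeq2 gave 8, where it called 38.4% of all genes in either direction. Both day 1 libraries were above both day −2 libraries in 33 genes (43.4%), against 38.2% of all genes, and below them in 2 genes, Rps2 and Rps27l, against 39.5% of all genes.

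The 7 higher genes were Rpl13a, Rpl31, Rpl37a, Rplp1, Rps9, Rps23 and Rps24. Rpl13a rose from 1022 and 889 to 1698 and 1699 CPM (log2 ratio 0.83, SE 0.15, adjusted p = 0.00938, edgeR), and its call was kept in each of 20 alternative settings. The calls of the other 6 were lost in 2 (Rps9), 3 (Rpl31 and Rpl37a), 5 (Rps24), 7 (Rps23) and 8 (Rplp1) of the 20. Rps9 rose from 975 and 764 to 1518 and 1393 CPM (log2 ratio 0.74, SE 0.19, adjusted p = 0.0295, edgeR). Rpl31, which lies at the rim of the tunnel where the new peptide leaves the ribosome, had the largest ratio, from 439 and 456 to 1363 and 781 CPM (log2 ratio 1.26, SE 0.34, adjusted p = 0.0364, edgeR). Its replicas at day 1 were far apart, but both were above day −2.

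Rpl37a rose from 292 and 252 to 541 and 432 CPM (log2 ratio 0.84, SE 0.23, adjusted p = 0.0368, edgeR). Rps24 rose from 509.5 and 428 to 1208 and 733 CPM (log2 ratio 1.05, SE 0.33, adjusted p = 0.0595, edgeR). Rps23 rose from 288 and 227 to 532 and 390.0 CPM (log2 ratio 0.84, adjusted p = 0.0641, edgeR), and Rplp1 from 1158 and 1055 to 1784 and 1534 CPM (log2 ratio 0.58, adjusted p = 0.0911, edgeR). In 6 of the 7 genes replica 1 of C cells at day 1 was above replica 2, and in Rpl13a they were level. Rps27l, a paralog of Rps27 that p53 induces, had the lowest ratio, −0.97, from 116 and 157 to 95.3 and 44.6 CPM (SE 0.85, adjusted p = 0.443, edgeR), and Rpl35a, next to it, had −0.38 (adjusted p = 0.758, edgeR).

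The median of the induction in C cells depended on the processing. It was 0.03 without replica 1 of C cells at day 1 and 0.41 without replica 2. It was −0.06 when the span of a gene in the genome was taken out of the counts of each library. Under this offset 4 of the genes were higher and 1 lower at an adjusted p under 0.1 (edgeR). Of all genes, 35.4% passed under it in either direction. Without replica 1 of P cells at day −2, which is in neither group, 31 genes were higher and 2 lower, where 31.0% and 30.3% of all genes were.

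In P cells, which started from a lower share of counts, the median ratio of day 1 to day −2 was larger than in C cells when all libraries were used. Without replica 1 of P cells at day −2 it was smaller, 0.13 on the log2 scale against 0.21 in C cells. With all libraries the values were as follows. The ratios were positive in 60 and negative in 16 of the 76 genes, with a median of 0.49 over both the 60S and the 40S genes, against 0.02 over all genes. Rpl31 and Rps27 passed the thresholds of the study, 2.63% of the genes where 18.0% of all genes did. At an adjusted p under 0.1 alone, Rpl9, Rpl31, Rpl37a, Rps12, Rps20 and Rps27 were higher (7.89%), where 14.0% of all genes were, and Rpl19 was lower, where 17.4% of all genes were. In edgeR 9 genes had an unadjusted p under 0.05, 8 of them higher, where 36.7% of all genes did, and DESeq2 gave 12, where it called 35.1% of all genes. Both day 1 libraries were above both day −2 libraries in 42 genes (55.3%), against 31.6% of all genes, and below them in 6 (Rpl4, Rpl5, Rpl19, Rpl21, Rps2 and Rps14), against 29.0% of all genes.

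Rps12 rose from 193 and 279 to 438 and 489.9 CPM (log2 ratio 0.98, SE 0.22, adjusted p = 0.0238, edgeR), so that at day 1 it was still below the 666 and 547 CPM of C cells at day −2. Rpl31 rose from 278 and 480.2 to 716 and 886 CPM (log2 ratio 1.08, SE 0.34, adjusted p = 0.066, edgeR). Rps20 rose from 505 and 612 to 741 and 839 CPM (log2 ratio 0.50, SE 0.16, adjusted p = 0.0664, edgeR). For all of these the day 1 libraries were above both day −2 libraries. Rps27 rose from 100.3 and 191 to 305 and 293 CPM (log2 ratio 1.04, adjusted p = 0.0736, edgeR), and Rpl37a from 355 and 238 to 493 and 451 CPM (log2 ratio 0.67, adjusted p = 0.08, edgeR). Rpl9 rose from 673 and 1018 to 1288 and 1293 CPM (log2 ratio 0.61, adjusted p = 0.0924, edgeR).

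Rpl19 was the only one of the 76 genes to fall in P cells at an adjusted p under 0.1, from 2736 and 1422 to 1111 and 1142 CPM (log2 ratio −0.88, SE 0.29, adjusted p = 0.0703, edgeR). Most of this difference came from replica 1 at day −2, which was the highest of the 8 libraries for this gene. Rps14 had the second lowest ratio, −0.51, from 1699.9 and 1122 to 1035 and 951 CPM (adjusted p = 0.142, edgeR). The highest ratios did not pass the test, since the day −2 replicas of their genes were far apart. They were 1.21 for Rpl39, a small protein in the wall of the exit tunnel, from 50.3 and 300.4 to 347 and 463 CPM, and 1.18 for Rps13, from 82.0 and 615 to 852 and 728 CPM, with adjusted p of 0.291 and 0.37 (edgeR).

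The calls in P cells were lost in 3 (Rps12) to 11 (Rpl9) of 20 alternative settings. Rpl31 and Rpl37a were higher at day 1 in both kinds of cell, which is 28.6% of the 7 genes higher in C cells and 33.3% of the 6 higher in P cells. Without replica 1 of P cells at day −2 the median of the induction in P cells was 0.13, and 9 genes were higher and 4 lower in edgeR, where 20.6% and 21.6% of all genes were. Without replica 2 the median was 0.95, and 53 were higher and 10 lower, where 35.0% and 32.2% of all genes were.

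An interaction term asked whether induction differed between the kinds of cell. None of the 76 genes passed at an adjusted p under 0.1 in edgeR, where 2.37% of all genes did. In 4 the unadjusted p was under 0.05, all with a lower response in P cells. Such a p was found in 14.4% of all genes, in either direction. DESeq2 gave 1 gene, Rpl13a, with a difference of −0.73 on the log2 scale (adjusted p = 0.0355). In edgeR the difference of Rpl13a was −0.71 (SE 0.22, adjusted p = 0.222), as it rose by 0.83 in C cells and had a ratio of 0.12 in P cells. The lowest differences were in Rps14 and Rplp1, −0.91 each (adjusted p = 0.266 and 0.263, edgeR), and the highest were 1.40 in Rpl35a and 1.04 in Rps13 (adjusted p = 0.506 and 0.632, edgeR). Over the 76 genes the median difference was 0.19, with 50 positive and 26 negative. It turned to −0.13 without replica 1 of P cells at day −2, when 4 genes, Rpl13a, Rplp1, Rps14 and Rps19, had a lower response in P cells (edgeR, adjusted p under 0.1, where 7.52% of all genes did). Without replica 2 of P cells at day −2 it was 0.64, with 39 genes higher and 12 lower, where 29.8% and 30.2% of all genes were.

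The replicas of P cells at day −2 differed more in these genes than those of any other condition. The median difference of replica 1 from replica 2 was −0.64 on the log2 scale, with an SD over the genes of 0.96 and a range from −3.12 to 1.21. Replica 1 was lower in 59 of 76 genes and under 0.5 times replica 2 in 32 of them (42.1%). It was under this ratio in 17.2% of all genes tested, and in 10.4% of 5524 other genes above 5 on the log2 CPM scale. Among 70 respiratory chain genes the share was 40%, and among 82 genes of ribosome biogenesis it was 8.54%. In C cells at day 1 replica 1 was the higher one, by a median of 0.47 (SD 0.40), in 66 of 76 genes. The replicas of C cells at day −2 and of P cells at day 1 differed by medians of 0.03 and 0.00, with an SD of 0.18 each.

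At the low end of replicas 1 and 2 of P cells at day −2 were Rps27l, with 17.5 and 152 CPM, Rpl35a, with 43.7 and 331, and Rps13, with 82.0 and 615. In these genes the 7 other libraries held between 44.6 and 157, between 247 and 504, and between 306 and 1026 CPM, so that replica 1 was the lowest of all. At the high end were Rpl41, the smallest ribosomal protein, with 1580.5 and 682 CPM, Rpl19, with 2736 and 1422, and Rplp2, a stalk protein, with 1026 and 639. The genes at the low end also differed between the replicas of C cells at day 1, where replica 1 was the higher one. Rps13 was at 1026 and 306 CPM there, Rps27l at 95.3 and 44.6 and Rpl35a at 475 and 247.

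**Figure D4:**
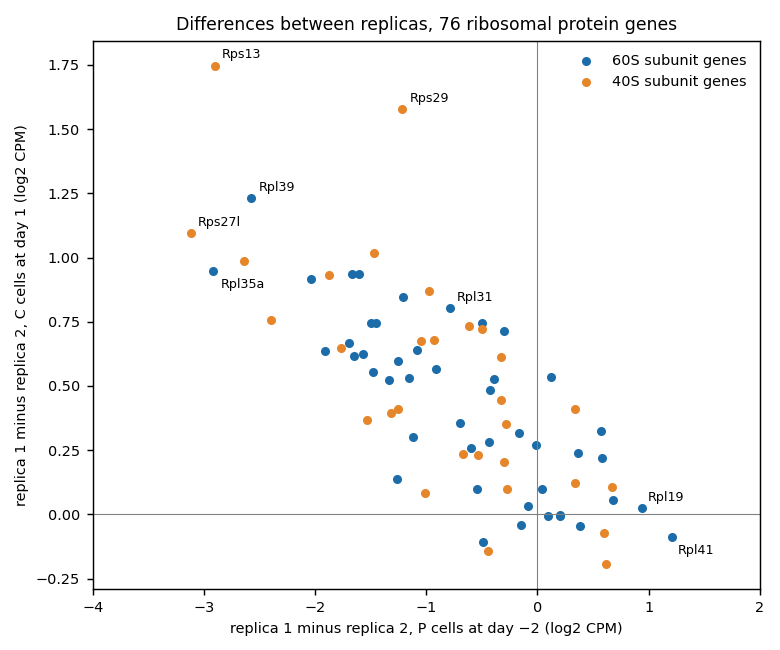
Difference between replicas 1 and 2 (log2 CPM) in P cells at day −2 (horizontal axis) and in C cells at day 1 (vertical axis) for the 76 ribosomal protein genes; each point is 1 gene, blue for the 60S and orange for the 40S subunit. The points fall from the upper left (Rps13, −2.90 and 1.75) to the lower right (Rpl41, 1.21 and −0.09).

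Across the 76 genes the 2 differences were correlated at −0.76 (Pearson) and −0.76 (Spearman), and across the 5524 other genes of high level at −0.75 by both measures, so the relation was not particular to ribosomal protein genes. The differences come from 4 libraries, and genes are not independent replicates. The difference in P cells at day −2 had a Spearman correlation of 0.38 with the level of the gene in C cells at day −2 and of 0.11 with the span of the gene in the genome. Among the 38 genes of higher level its median was −0.22, and replica 1 was higher in 15, while among the 38 of lower level it was −1.19, and replica 1 was higher in 2. Some other gene lists had differences of the same sign and others did not. The median difference in P cells at day −2 was −0.71 in 9 other ribosomal genes, −0.70 in 26 other 5′TOP genes and −0.48 in 49 translation factors, and in C cells at day 1 it was 0.33, 0.19 and 0.14. The median difference in P cells at day −2 was −0.79 in 70 subunits of the respiratory chain, −0.31 in 78 proteins of the mitochondrial ribosome and 0.04 in 82 genes of ribosome biogenesis. In C cells at day 1 it was 0.44, 0.21 and −0.07 in these lists. Replication histones moved as well, with a sum over 7 genes of 100 and 29.8 CPM in the replicas of P cells at day −2 and of 120 and 139 CPM in those of C cells at day 1. The part of these changes, and of the fibroblast markers given above, in the differences of the ribosomal protein genes was not tested.

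Some members are named for what they are known to do. Rplp0, which anchors the stalk and took the largest share of the counts, had 3811 and 3464 CPM in C cells against 2513 and 3290.2 in P cells at day −2, and 5685 and 3944 against 4006 and 3947 at day 1. Both P libraries were below both C libraries at day −2, while at day 1 they overlapped, and the adjusted p were 0.38 and 0.675 (edgeR). Rps6, the target of the S6 kinases downstream of mTOR, had 1127 and 950.2 CPM in C cells against 666 and 908 in P cells at day −2 (log2 ratio −0.40, SE 0.19, adjusted p = 0.241, edgeR), and 1228 and 1357 against 1026 and 1071 at day 1 (log2 ratio −0.30, adjusted p = 0.549, edgeR). Its P libraries were below its C libraries at both days, but by less than the test could separate.

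Rpl11, the partner of Rpl5, had 1217 and 1054 CPM in C cells against 689 and 1004 in P cells at day −2 (log2 ratio −0.42, adjusted p = 0.242, edgeR), and 1455 and 1359.5 against 1045 and 1031 at day 1 (log2 ratio −0.44, adjusted p = 0.363, edgeR). Rpl11 and Rpl5 were thus lower in both P replicas at both days, Rpl5 past the threshold and Rpl11 not. Rps19, which is mutated in Diamond-Blackfan anaemia, had 986 and 918 CPM in C cells against 1338 and 838 in P cells at day −2, on either side of the control, and 1378 and 1281 against 822 and 860.5 at day 1 (log2 ratio −0.66, SE 0.23, adjusted p = 0.203, edgeR). Rps27a, which is made as a fusion with ubiquitin, had 711 and 866 CPM against 417 and 640.4 at day −2 and 941 and 566 against 652 and 599.5 at day 1, with adjusted p of 0.271 and 0.79 (edgeR). Rplp2 had 955 and 759.8 CPM against 1026 and 639 at day −2, and 1006 and 967 against 851 and 726 at day 1, with adjusted p of 0.92 and 0.646 (edgeR).

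Several of these genes have a paralog, and the tissue-restricted ones were hardly detected. Rpl3l, a muscle form of Rpl3, had 0 to 2 counts in a library, Rpl10l and Rpl39l, forms of the testis, 0 to 2 counts each, Rpl32l 0 to 7 and Rps4l, annotated as a transcribed pseudogene, 1 to 7. These 5 genes were not tested, and a count of 3 corresponds to between 0.107 and 0.160 CPM, a limit that covers counting error only. Their partners were abundant, with 392 to 1419 CPM for Rpl10, 1402 to 2293 for Rpl3 and 387 to 1601 for Rps4x. Among paralogs outside the symbol rule, Rpl22l1 had 69.9 and 82.9 CPM in C cells against 12.9 and 52.3 in P cells at day −2, and Rpl22 had 419 and 410.2 against 181 and 392. The log2 ratios were −1.22 and −0.53, and neither passed (adjusted p = 0.294 and 0.341, edgeR). Rpl36al and Rpl7l1 had log2 ratios of −0.49 and −0.51 at day −2, beside −0.75 in Rpl36a and −0.47 in Rpl7, and none of the 4 passed. How reads that align to several places were counted is not named, so genes with near-identical copies are uncertain. Rps27 and Rps27rt, for example, had almost the same CPM in every library (294 and 292 in C cells at day −2, replica 1).

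The genes of ribosomal function that the symbol rule did not take are given beside the set. For these and the lists below, the comparisons include replica 1 of P cells at day −2, which stood apart. Of 9 other ribosomal genes tested, 8 were lower in P cells at day −2 (median −0.53) and 7 at day 1 (median −0.49). At an adjusted p under 0.1 (edgeR) 1 was lower at each day, where 3.72% and 3.42% of all genes were. Rps3a1 passed at an adjusted p under 0.1 at day −2, from 1155 and 984 CPM in C cells to 598 and 773 in P cells (log2 ratio −0.64, adjusted p = 0.0917, edgeR), and Fau, which encodes a ubiquitin-like protein fused to a protein of the 40S subunit, passed at day 1, from 1046 and 1007 to 551 and 647 CPM (log2 ratio −0.78, adjusted p = 0.0416, edgeR). Rpsa was the exception at day −2, with 3279.9 and 3225 CPM in C cells against 5650.5 and 2672 in P cells, on either side of the control.

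Other mRNAs with a 5′TOP motif had the same sign as the ribosomal protein genes. Of 26 such genes, among them translation factors, 22 were lower in P cells at each day, with medians of −0.35 and −0.26, but only Snhg8 passed at day −2 and Eef2 at day 1. Eef2, the elongation factor that moves the ribosome along the mRNA, had 6017 and 6567 CPM in C cells at day 1 against 3525 and 3574 in P cells (log2 ratio −0.83, SE 0.20, adjusted p = 0.0796, edgeR). Like Rpl13a it rose in C cells (log2 ratio 0.83, adjusted p = 0.0226, edgeR) and had a ratio of 0.03 in P cells. The 49 translation factors as a whole had medians of −0.04 and −0.01. Of them, 1 was higher at day −2, Eef2k, where 7.62% of all genes were, and 1 was lower at day 1, Eef2, where 3.42% were.

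Among the genes that assemble ribosomes, more were lower than higher after induction, although most did not pass the test. Of 82 genes of ribosome biogenesis, 35 were lower and 1 higher at day 1 than at day −2 in C cells, with a median log2 ratio of −0.51, where 17.4% of all genes were lower and 18.1% higher. In P cells 27 were lower and 3 higher, with a median of −0.30, where 17.4% and 14.0% of all genes were. Utp20, a component of the processome of the small subunit, fell from 246 and 229 to 81.7 and 81.2 CPM in C cells (log2 ratio −1.55, SE 0.14, adjusted p = 0.000569, edgeR) and from 160 and 185 to 94.3 and 98.0 in P cells (log2 ratio −0.84, adjusted p = 0.00738, edgeR). Heatr1, which is needed for transcription of ribosomal DNA, fell from 159 and 143 to 59.4 and 65.9 CPM in C cells (log2 ratio −1.27, adjusted p = 0.00188, edgeR). Before induction 3 of the 82 were lower in P cells, Heatr1, Tsr1 and Polr1b, a subunit of RNA polymerase I, where 3.72% of all genes were, and 0 higher (1 at an unadjusted p under 0.05), and at day 1 none passed in either direction in edgeR (3 at an unadjusted p under 0.05).

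The mitochondrial ribosome and the respiratory chain are given for comparison. Of 78 proteins of the mitochondrial ribosome, 3 were higher and 12 lower after induction in C cells (median −0.21), where 18.1% and 17.4% of all genes were, and 11 higher and 5 lower in P cells (median 0.13), where 14.0% and 17.4% were. Between P and C cells 0 passed in edgeR at day −2 (8 at an unadjusted p under 0.05, median −0.19). At day 1 only 1, Mrps6, was higher, where 2.73% of all genes were (median 0.12). The 70 respiratory chain genes had a median of −0.37 at day −2 and of 0.12 at day 1, so that at day 1 their sign was not that of the ribosomal protein genes, −0.39.

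**Figure D5:**
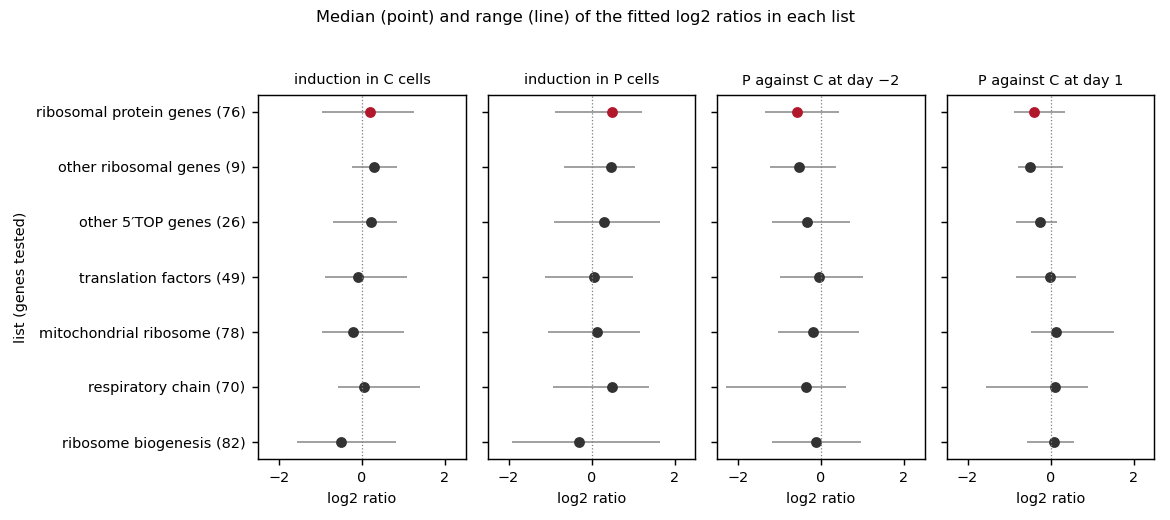
Median (point) and range (line) of the fitted log2 ratio (horizontal axis) in 7 gene lists, with the number of genes tested in brackets, in the 4 comparisons; the dotted line is the median of all genes tested, and ribosomal protein genes are in red. In P against C cells at day 1 the points of the ribosomal protein, other ribosomal and other 5′TOP genes lie at −0.39, −0.49 and −0.26, and those of the other lists between −0.01 and 0.12.

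Of 30 genes that act on the transcription or translation of ribosomal protein mRNAs, 3 were higher in P cells at day −2 and 0 lower (3 lower at an unadjusted p under 0.05), where 7.62% of all genes were higher. All 3 are of the Mxd family, which compete with Myc for its partner Max. Mxd4 had 24.6 and 19.8 CPM in C cells against 103 and 45.9 in P cells (log2 ratio 1.74, SE 0.36, adjusted p = 0.0424, edgeR), Mxd3 had 11.2 and 10.9 against 51.6 and 22.7 (log2 ratio 1.74, adjusted p = 0.0424, edgeR) and Mxd1 had 4.90 and 6.60 against 23.5 and 11.8 (log2 ratio 1.62, adjusted p = 0.0453, edgeR). In each, replica 2 of P cells was also above both C libraries. Myc itself had 86.3 and 87.1 CPM in C cells against 148 and 70.8 in P cells, on either side of the control. At day 1 none of the 30 passed between P and C cells in edgeR (2 at an unadjusted p under 0.05). On induction 5 of the 30 were higher and 2 lower in C cells, where 18.1% and 17.4% of all genes were. In P cells 4 were higher and 0 lower, where 14.0% and 17.4% of all genes were. Mtor was among the higher ones in both. It went from 84.0 and 84.1 to 126 and 143 CPM in C cells (log2 ratio 0.68, adjusted p = 0.0159, edgeR), and from 86.0 and 73.1 to 104 and 105 in P cells (log2 ratio 0.39, adjusted p = 0.0981, edgeR).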

How the data were processed

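RNA-seq libraries of 3T3-L1 cells were sequenced on the Ion Torrent system. The authors removed artifacts with the FASTX-Toolkit, aligned reads to mm9 with TopHat 2.0.9 and counted them per gene of UCSC refGene with GenomicRanges and related R packages. The authors deposited the raw counts. The handling of strand and of reads with several places is not given in the sources used here. The authors called genes with DESeq.

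Counts were analysed with edgeR 4.0.16 in R 4.3.3. Symbols were taken from RefSeq (GRCm38.p6, names and gene spans only), which gave 23929 of 24013 genes a symbol and left 84 without. Genes were filtered with filterByExpr (13339 left), scaled by TMM, and fitted with a quasi-likelihood model of 4 condition means over all 8 libraries, with two-sided tests and Benjamini-Hochberg adjustment over all genes. CPM used the scaled sizes, and log2 CPM a prior count of 2. The paper calls the replicas biological, and the labels number them without saying whether equal numbers were handled together. On simulated data with known changes the method was tested first.

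The members and the gene lists were chosen with earlier results of these data known. The genes named were the 2 highest and lowest in each comparison and in the interaction, the 3 extremes of the replica difference in P cells at day −2, paralogs, known representatives and called genes. A planned choice by level per length was not applied, as transcript lengths were not used here. Other genes named (Rpl4, Rps2, Rpl21 and those of the lists outside the set) were chosen after their values were seen. Alternatives were DESeq2 1.42.0, other scalings, filters and thresholds, a replica block, an offset for gene span, separate fits and each library left out. Crossed blocks and a fit without 2 libraries were added after the data were seen.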

Additional observations from a re-analysis of the deposited data

Results flagged for a closer look

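In Rps14 and Rpl4 both day 1 libraries were above both day −2 libraries in C cells and below both in P cells. Taken singly, the first held for 38.2% and the second for 29.0% of all genes. The share of all genes with both was not counted. Rps14 had 1122 and 977 CPM at day −2 and 1350.5 and 1419 at day 1 in C cells, but 1699.9 and 1122 and then 1035 and 951 in P cells. The difference of the responses was −0.91 on the log2 scale, and the interaction test did not pass (adjusted p = 0.266, edgeR). Rpl4 had 1700.4 and 1373 CPM and then 1747 and 1756 in C cells, and 1508 and 1414 and then 1342 and 1331 in P cells, with a difference of −0.32 (adjusted p = 0.469, edgeR). No group had the 4 samples that a test for a single outlying library needs.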

How the results depend on the processing

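No called gene changed direction in any alternative run, but with 2 libraries per condition the counts of called genes moved easily. The counts by the study's thresholds were 2 for induction in C cells, 2 in P cells, 2 between P and C cells at day −2, 0 at day 1 and 0 for the interaction. An adjusted p under 0.05 gave 1, 0 and 1 for the first 3, and no ratio threshold gave 7 for each of the 4 comparisons. DESeq2 gave 4 at day −2 and 1 for the interaction. Library totals gave 1 for induction in C cells, and moved the median of all genes by −0.11, 0.19, −0.18 and 0.11 in the 4 comparisons, with those of ribosomal protein genes at 0.09, 0.65, −0.75 and −0.29. The offset for gene span gave 1 and 0 for the 2 inductions, and a median of −0.0587, opposite in sign, in C cells. Fits of the 2 conditions alone gave 0 for induction in P cells and 0 at day −2. The replicate block gave 0 for induction in P cells, as did the block with P numbers crossed at day 1, while the block with all day 1 numbers crossed gave 4 there and 5 at day −2. The labels do not pair the numbers. At an adjusted p under 0.1 the replicate block left 6, 2, 4 and 1 genes in the 4 comparisons. Of all genes, 28.7%, 23.5%, 5.35% and 3.4% passed there in either direction. The Pearson correlation of the replica differences over all genes was above 0.1 in 1 of 6 pairs of conditions (0.209, between the uninduced conditions). In the rest it was negative, lowest at −0.355 for P before induction with C after it. Among the 5524 other genes of high level these 2 pairs gave 0.44 and −0.75. A negative value means that unlike numbers, not equal ones, went the same way. Leaving out each library in turn gave 0 to 3, 0 to 38, 0 to 40 and 0 to 51 for induction in C cells, in P cells, day −2 and the interaction, where 38, 40 and 51 came without replica 2 of P cells at day −2, and 0, 1 and 4 without replica 1. Medians ranged from 0.0258 to 0.409 for induction in C cells and from −0.60 to −0.18 at day 1. Without both replica 1 of P cells at day −2 and replica 2 of C cells at day 1, a pair picked after their values were seen, the counts were 6, 0, 1, 3 and 30, with medians of 0.40 for induction in C cells and −0.60 at day 1. The cause was not tested, apart from the fewer libraries in these fits. Without this pair, and without replica 2 of P cells at day −2 alone, more of all genes also passed an adjusted p under 0.1 than with all libraries. This held in each comparison and in the interaction, so the larger counts were not particular to ribosomal protein genes. The share of all genes that passed the study's thresholds is not given for these fits.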
